A study of Mus musculus with 21 samples.

Results

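The plasminogen activator system was read out through 5 genes in 21 RNA-seq libraries of murine pancreatic ductal adenocarcinoma (PDAC) cells: the activators Plau and Plat, the urokinase receptor Plaur and the inhibitors Serpine2 and Serpinb2. The genes were listed by name, with no threshold on their values, and all 5 were found among the 34478 genes of the table and passed the filter on low values (10 or more normalized counts in 3 or more samples, which left 19300 genes for testing). The cells were 6 primary lines (#3, #4, #6, #7, #9 and #10), each from the tumour of a different mouse. All groups shared the genotype of these mice. Ptf1awt/Cre, which expresses Cre recombinase from the Ptf1a locus and so in the pancreatic lineage, and Trp53loxP/loxP, which Cre deletes, were among its alleles. Parental cells (n = 6) had never been exposed to the MEK inhibitor (MEKi) trametinib. Resistant cells (n = 6) had been raised on increasing doses and were kept at 100 times the IC50 of their line. P5 cells (n = 3, lines #3, #7 and #9) and P12 cells (n = 6) were resistant cells passaged 5 and 12 times without drug. The study describes resistant cultures as outgrowths of single clones, from whole genome sequencing of lines #3 and #9 only. A resistant sample stood for 1 selected culture of its line. Every line gave 1 library per state, and lines were therefore the replicates. For P5 of #7 and #9 the title and the group label read P5, whereas their free-text description named 12 passages; they were kept as P5, and the cause of the discrepancy was not tested.

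Plasminogen, the circulating zymogen of the broad-spectrum protease plasmin, is cleaved by urokinase (encoded by Plau) at the cell surface and by tissue-type plasminogen activator (encoded by Plat) mainly on fibrin and on cell-surface binding proteins. Urokinase is held at the membrane by a lipid-anchored receptor, uPAR, encoded by Plaur. Protease nexin-1 (Serpine2) and plasminogen activator inhibitor type 2 (Serpinb2) are serpins that trap urokinase, and protease nexin-1 also inhibits thrombin. In pancreatic cancer the system is known for pericellular matrix proteolysis and invasion, and transcription of several of its genes is known to respond to MAPK signalling through AP1 and ETS factors.

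In the GENCODE M21 annotation of GRCm38 (mm10), Plau lies at chr14:20836660-20843385 on the plus strand and Plat at chr8:22757727-22782844 on the plus strand. Plaur lies at chr7:24462484-24475968 on the plus strand. Both inhibitor genes are on chromosome 1, Serpine2 at chr1:79794197-79861180 on the minus strand and Serpinb2 at chr1:107511423-107535478 on the plus strand. RefSeq promoter sequences (GRCm38.p6) were matched for 3 of the 5 genes, Plaur, Serpine2 and Serpinb2. Those of Plaur and Serpinb2 are shown because each held a match to AP1, a factor known to act downstream of the MAPK pathway that trametinib inhibits. Each sequence is the 250 bases before the start site on the plus strand, chr7:24462233-24462482 for Plaur and chr1:107511173-107511422 for the first of the 2 listed starts of Serpinb2. Capitals mark matches, on either strand, to an AP1 element (TGANTCA), a PEA3-type ETS element (AGGAAG), a TEAD element (GGAATG) or a TATA box (TATAAA).
Plaur: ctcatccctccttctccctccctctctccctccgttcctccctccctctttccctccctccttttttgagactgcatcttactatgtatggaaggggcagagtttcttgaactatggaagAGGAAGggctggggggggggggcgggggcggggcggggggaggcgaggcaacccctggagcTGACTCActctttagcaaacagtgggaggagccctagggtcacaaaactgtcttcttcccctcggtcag
Serpinb2: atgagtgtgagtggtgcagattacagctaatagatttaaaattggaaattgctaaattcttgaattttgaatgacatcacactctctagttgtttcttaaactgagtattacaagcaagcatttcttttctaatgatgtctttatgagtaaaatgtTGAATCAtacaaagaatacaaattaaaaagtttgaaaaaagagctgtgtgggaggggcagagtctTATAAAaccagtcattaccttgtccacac
The Plaur promoter held the AP1 match TGACTCA 69 to 63 bases before the start and an AGGAAG 130 to 125 bases before it. The Serpinb2 promoter held the AP1 match TGAATCA 94 to 88 bases before the start and a TATAAA 29 to 24 bases before it. In the Serpine2 promoter the only match was an AGGAAG 25 to 20 bases before the start, and that RefSeq start lies inside the longer GENCODE gene model. Of the 32851 mouse promoters of this length, 6.75% held TGANTCA, 29.5% AGGAAG, 12.6% GGAATG and 12.4% TATAAA. A match is a description of the letters and not a measured binding site.

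The deposited values were normalized counts, that is, estimated reads per gene divided by a size factor of the sample. Totals were 28600000 to 37100000 normalized counts per sample, and the smallest steps between low values put the depth at about 24100000 to 42700000 reads (median 35000000 in Parental, 31900000 in Resistant, 32500000 in P5 and 32100000 in P12). A floor of 3 reads corresponded to 2.31 to 4.07 normalized counts and covers counting error only. The label of pancreatic tumour cells was checked against marker lists. Of 5 epithelial markers, 4 reached 10 normalized counts in each state and Epcam did not in any sample. The acinar genes Cpa1 and Amy2a2, the islet hormone gene Ins2 and the T-cell gene Cd3e stayed under 10 throughout. Other members of the same lists did not. The acinar gene Cela1 reached 931.2 in P12 #4, the islet gene Chga 61.6 in Resistant #3 and the leukocyte gene Csf1r 2530 in Resistant #10. Pnlip, Prss2 and Gcg also passed 10 in some samples. The sum of 4 endothelial genes was 36.8 to 165.7 in Parental, 15.8 to 2753 in Resistant and 61.1 to 231.3 in P12. The epithelial sum ran from 15800 to 251100 normalized counts (median 214800) in Parental, from 643.7 to 209800 (median 59150) in Resistant and from 459.8 to 197100 (median 50590) in P12, with #9 lowest in each state. The sum of 6 fibroblast-type markers ran from 95.4 to 10380 (median 451.9) in Parental, from 1875 to 504000 (median 88810) in Resistant and from 224 to 124000 (median 26120) in P12; in Parental, Lum was under 10 and the other 5 reached 10. In bulk libraries a smaller share of cells of a type and less RNA per cell cannot be told apart. By median, the epithelial sum was lower in Resistant than in Parental and had not risen again in P12. Its members differed between Resistant and P12. Cdh1 was higher in P12 in every line, at 73.1 and 2808 in #3 and at 2120 and 14006 in #10. It stayed below its parental level in every line. Krt18 was higher in P12 in every line but #3, and Krt19 was lower in every line but #9 and #10. Krt8 went both ways. The median fibroblast-type sum was higher in Resistant than in Parental and came part of the way back in P12. The part of these marker sums in the results below was not tested.

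Transcripts of the receptor and the tissue-type activator dominated the system. Per kilobase of merged exons, the median normalized count in Parental was 5212 for Plaur, 2621 for Plat, 276.7 for Plau, 44.1 for Serpine2 and 1.25 for Serpinb2. Plaur was above Plau in 21 of 21 samples, and Plau was above Serpine2 in 21 of 21 samples, by 1.09-fold in Parental #4 and by up to 13.8-fold in Resistant #6. Plat was above Plau in 20 of 21 samples, the exception being P12 of #9, and Serpine2 was above Serpinb2 in 20 of 21, the exception being P5 of #7. The full order Plaur, Plat, Plau, Serpine2, Serpinb2 held in 12 samples and the same order with Plat first held in 7. Plat and Plaur were thus the neighbours that exchanged places most often, in 7 of 21 samples, and the other exchanges were the 2 single samples named.

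The exchange of Plat and Plaur differed between lines. In all 6 parental lines Plaur exceeded Plat per kilobase, with a Plat-to-Plaur ratio of 0.266 in #3, 0.333 in #4, 0.456 in #6, 0.826 in #7, 0.551 in #9 and 0.495 in #10. In the resistant samples the ratio was 8.14 in #3, 5.79 in #4 and 1.16 in #6, whereas it was 0.559 in #7, 0.635 in #9 and 0.361 in #10. The 3 lines with Plat on top in the resistant state still had it on top after 12 drug-free passages, at 2.22 in #3, 2.93 in #4 and 2.57 in #6, and P5 of #3 stood at 2.98. In P12 of #7, #9 and #10 the ratio was 0.990, 0.271 and 0.662. The split of the lines was noticed in these values and was given no test.

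**Figure D1:**
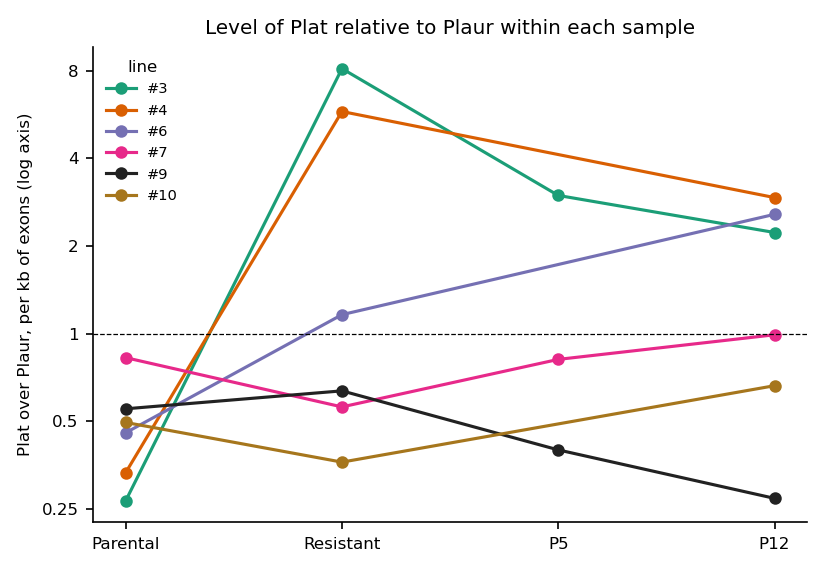
Ratio of Plat to Plaur, each in normalized counts per kilobase of exons, in every sample (y axis, log scale) by state (x axis), with 1 line of points per cell line and a dashed line at equal levels. Lines #3, #4 and #6 cross from below 1 in Parental to above 1 in Resistant and stay above it, up to 8.14 in Resistant #3; lines #7, #9 and #10 stay below 1.

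Each pair of states was compared on log2(normalized count + 1) with limma across all genes tested, and a gene was called at an adjusted p (Benjamini-Hochberg) below 0.01 with an absolute log2 difference above 1. None of the 5 genes was called in Resistant versus Parental, where 5.3% of all genes tested were called, nor in P12 versus Resistant (2.13% called) or P12 versus Parental (0.114% called). The same held in P5 versus Resistant (0.378% called), P5 versus Parental (0.0259% called) and P12 versus P5 (0% called by limma, with 130 genes at an unadjusted p under 0.05). With the cell line as a block, the background was 10.5% in Resistant versus Parental, 4.52% in P12 versus Resistant and 0.523% in P12 versus Parental, and again none of the 5 was called. Unadjusted limma p values under 0.05 were also counted. Without a block, the 5 genes contributed 0 in Resistant versus Parental and 2 in P12 versus Resistant (Serpine2 and Serpinb2). They contributed 1 in P12 versus Parental (Serpinb2). Over all 19300 genes the counts were 5642, 3821 and 2953. With the block, the 5 genes contributed 1 (Plaur), 2 (Serpine2 and Serpinb2) and 2 (Plaur and Serpinb2) in the same comparisons. Over all genes the counts were then 7289, 5246 and 4591. The median log2 difference of the 5 genes was -0.90 in Resistant versus Parental, 0.79 in P12 versus Resistant and 0.08 in P12 versus Parental. Over all genes tested the medians were -0.0049, 0.022 and 0.028. The genes are described in the order activators, receptor and inhibitors.

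**Figure D2:**
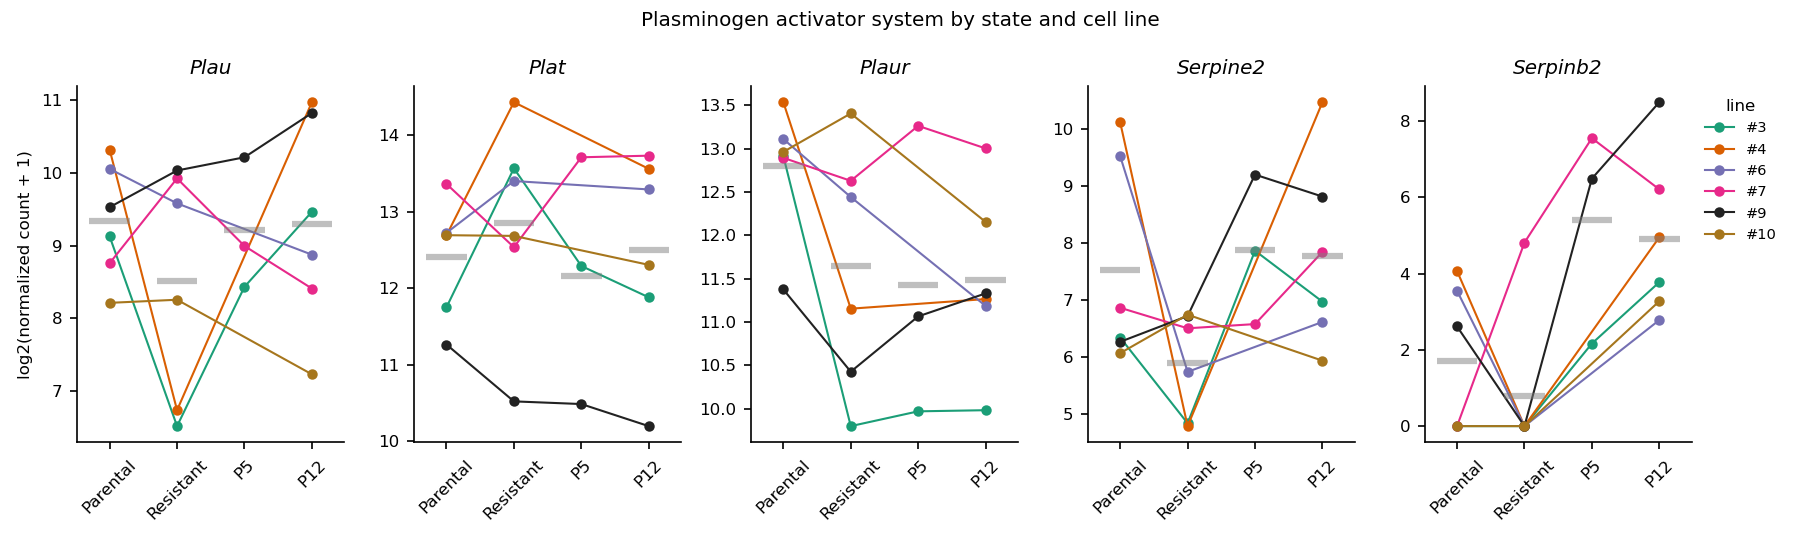
Level of each gene as log2(normalized count + 1) (y axis, its own scale per panel) in Parental, Resistant, P5 and P12 (x axis); points are samples joined by cell line and grey bars are state means. Plat, Plaur and Plau cross between lines without a shift of every line, whereas Serpinb2 lies at 0 in 5 of 6 resistant samples and above 0 in each P12 sample.

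Plau, the urokinase gene, ranged from 295.6 to 1277 normalized counts (median 648) in Parental, from 90.5 to 1047 (median 534.9) in Resistant and from 149 to 2010 (median 587.4) in P12. The 3 ranges overlapped. On the log2 scale the level was 9.33 ± 0.80 in Parental, 8.51 ± 1.59 in Resistant and 9.30 ± 1.44 in P12 (SD, n = 6). The spread between lines was thus wider in Resistant and P12 than in Parental. The highest line was 11.6-fold above the lowest in Resistant and 13.5-fold above it in P12. Lines #3 and #4 stood apart. In #3 Plau was 558 in Parental, 90.5 in Resistant, 344.7 in P5 and 706 in P12. In #4 it was 1277 in Parental, 105.6 in Resistant and 2010 in P12. The resistant level was thus 6.16-fold below the parental level in #3 and 12.1-fold below it in #4, and both lines were above their parental level at P12. In #7 and #9 the resistant value was the higher, at 971.1 against 432.1 and at 1047 against 737.9. Line #10 was low throughout, with 295.6, 304.6 and 149 in Parental, Resistant and P12. The difference Resistant minus Parental was -0.83 (SE 0.70, 95% interval -2.28 to 0.63, limma adjusted p = 0.472), with 3 lines higher and 3 lower, and it was -0.27 without #4. P12 versus Resistant gave 0.79 (adjusted p = 0.592), again 3 and 3, and P12 versus Parental gave -0.04 (adjusted p = 0.987, limma, 95% interval -1.49 to 1.42).

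Plat, encoding the tissue-type activator, was the most line-bound of the 5. It ranged from 2455 to 10540 normalized counts (median 6619) in Parental, from 1465 to 22131 (median 8702) in Resistant and from 1171 to 13627 (median 7544) in P12, and line #9 was the lowest sample of every state. Lines #3 and #4 again had the largest resistant-to-parental differences, here upward: #3 stood at 3443 in Parental, 12140 in Resistant, 5009 in P5 and 3769 in P12, and #4 at 6618, 22131 and 12091 in Parental, Resistant and P12. In #7 the resistant value of 5939 was below the parental 10540, and P5 and P12 stood at 13426 and 13627. Line #10 hardly differed between Parental and Resistant (6620 and 6578). Over the 6 lines the difference Resistant minus Parental was 0.44 (SE 0.67, 95% interval -0.96 to 1.84, limma adjusted p = 0.714; 3 lines higher, 3 lower). P12 minus Resistant was -0.36 (limma adjusted p = 0.830), lower in 5 of 6 lines, and P12 minus Parental was 0.08 (limma adjusted p = 0.966).

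Plaur, the receptor gene, ranged from 2657 to 11870 normalized counts (median 7850) in Parental, from 890 to 10855 (median 3920) in Resistant and from 1011 to 8210 (median 2517) in P12. The resistant value was below the parental one in 5 of 6 lines, by 8.67-fold in #3 (7718 to 890), 5.21-fold in #4 (11870 to 2278) and less in #6, #7 and #9; line #10 was higher (7981 and 10855). Resistant minus Parental was -1.16 (SE 0.64, 95% interval -2.48 to 0.17, limma adjusted p = 0.238). After drug withdrawal the lines differed. In #3 Plaur was 1002 in P5 and 1011 in P12, in #4 it was 2460 and in #6 2329 in P12, all below their parental levels, whereas #7 was at 8210 and #9 at 2573, close to their parental 7610 and 2657. P12 minus Parental was -1.31 (SE 0.64, 95% interval -2.64 to 0.01, limma adjusted p = 0.331), lower in 5 of 6 lines, and P12 minus Resistant was -0.16 (SE 0.64, limma adjusted p = 0.931). With the line as a block the 95% interval was -2.05 to -0.26 in Resistant versus Parental and -2.21 to -0.42 in P12 versus Parental. Neither interval included 0. The limma adjusted p with the block was 0.0549 and 0.0770, so the paired view did not change the call. A two-sided exact permutation test of the 6 paired differences, over all sign flips, gave p = 0.09375 in both comparisons, unadjusted.

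Serpine2, encoding protease nexin-1, ranged from 65.9 to 1102 normalized counts (median 97.4) in Parental, from 26.6 to 105.7 (median 70.9) in Resistant and from 60.0 to 1408 (median 175.9) in P12. The resistant range was the narrowest of the 3, and the lines with the highest parental values were low in it: #4 stood at 1102 in Parental and 26.6 in Resistant, and #6 at 730.4 and 52.3. In P12 #4 was back at 1408, whereas #6 was at 96.7. Line #9 followed another course, with 75.8 in Parental, 104 in Resistant, 584 in P5 and 446.9 in P12. Resistant minus Parental was -1.64 (SE 0.81, 95% interval -3.34 to 0.06, limma adjusted p = 0.187), lower in 4 of 6 lines, and -0.90 without line #4. P12 minus Resistant was 1.88 (SE 0.81, 95% interval 0.19 to 3.58, limma adjusted p = 0.195), higher in 5 of 6 lines with #10 the exception. Without #4 it was 1.13, and the range over each line left out was 1.13 to 2.42. P12 minus Parental was 0.25 (limma adjusted p = 0.910).

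Serpinb2, encoding plasminogen activator inhibitor type 2, had the lowest level of the 5 and was the gene whose lines moved alike between Resistant and P12. Parental samples held 0, 15.8, 10.7, 0, 5.13 and 0 normalized counts in #3, #4, #6, #7, #9 and #10. In Resistant the gene was listed at 0 in every line but #7, which held 27.2. In P5 it stood at 3.49 in #3, 187.3 in #7 and 89.2 in #9. P12 samples held 12.7, 30.01, 5.88, 73.2, 361.3 and 8.71 in #3, #4, #6, #7, #9 and #10. Within each line the P12 value was above the resistant value, but the groups overlapped, because Resistant #7 exceeded 3 of the P12 samples. The 8 genes checked as used by every cell, among them Actb and Gapdh, were at 0 in none of the 21 samples. P12 minus Resistant was 4.12 on the log2(value + 1) scale (SE 1.17, 95% interval 1.67 to 6.56, limma adjusted p = 0.0400), higher in 6 of 6 lines and short of the threshold of 0.01. The adjusted p lay between 0.0156, reached with the cell line as a block, and 0.130, reached without line #9, over the alternatives tried. The exact two-sided sign-flip permutation test over the 6 lines gave p = 0.03125, the smallest that 6 lines allow, and was the only 1 of 15 such unadjusted tests under 0.05. In the 5 lines listed at 0 in Resistant the difference could not be negative, which limits what the shared direction and this test can show. P12 minus Parental was 3.21 (SE 1.17, 95% interval 0.77 to 5.66, limma adjusted p = 0.198), higher in 5 of 6 lines with #6 lower. Resistant minus Parental was -0.90 (SE 1.17, limma adjusted p = 0.661), between -2.05 without #7 and -0.27 without #4. Most of these counts were a few reads, so the fold of a single line is poorly fixed at this depth. Leukocytes are known for Serpinb2 expression. Their markers summed to 141 to 274.2 normalized counts in Parental, 204.4 to 2896 in Resistant and 213.7 to 250.3 in P12. Of the 5 in the table, 4 reached 10 in each state and Cd3e did not. Most of the sum was Cd68 in Parental (117.6 to 214.9) and P12 (131.3 to 210.8), and Csf1r (2530) in Resistant #10. Itgam was 39.9 in P12 #7 and 33.4 in P12 #9, against 0.771 and 4.74 in Resistant. Only in #3 was Itgam lower in P12 than in Resistant, and only in #6 was Ptprc. Cd68 and Csf1r went the other way. Cd68 was lower in P12 than in Resistant in every line but #3, and Csf1r in every line but #6. In #7 Cd68 was 227.4 in Resistant and 171.5 in P12, and Csf1r 72.9 and 15.5. In #9 Cd68 was 166.0 and 148.7, and Csf1r 28.1 and 24.4. Whether cells of this kind contributed to the Serpinb2 values was not tested.

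**Figure D3:**
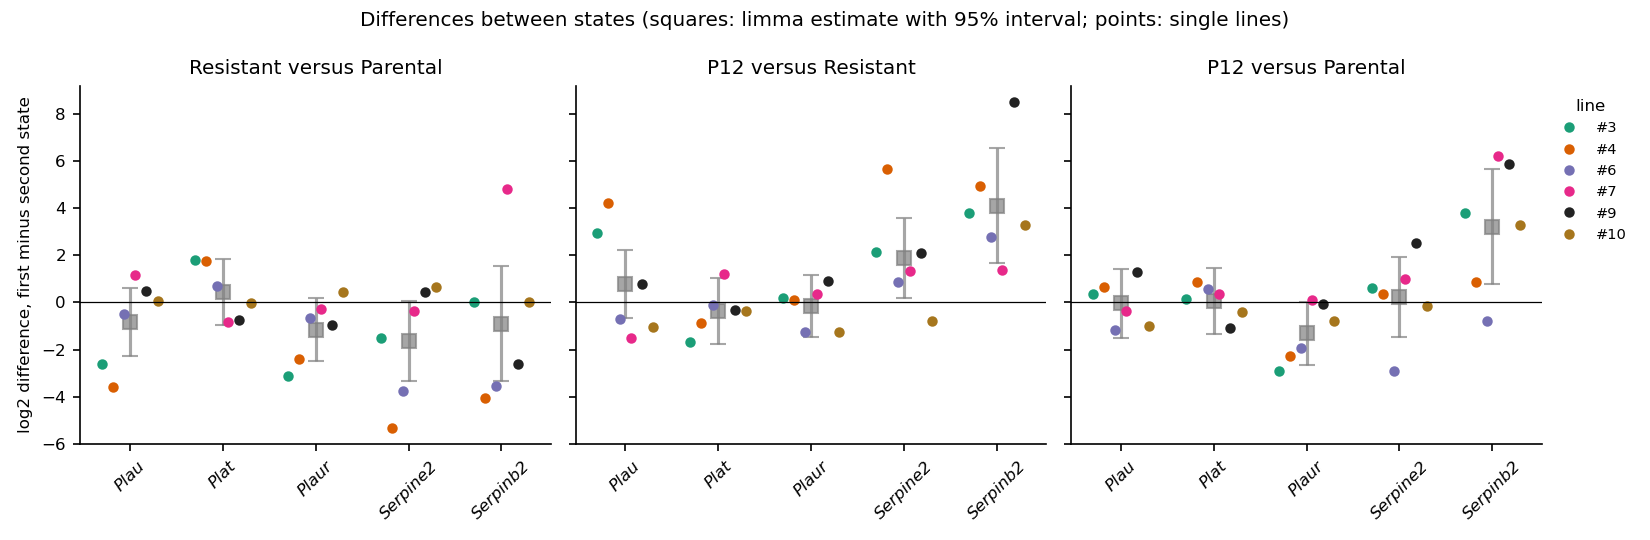
Log2 difference of each gene in 3 comparisons (y axis, first minus second state, on log2 of normalized count + 1). Squares are limma estimates with 95% intervals and coloured points are the 6 single lines; all 6 points of Serpinb2 lie above 0 in P12 versus Resistant (estimate 4.12, 95% interval 1.67 to 6.56), and the lines fall on both sides of 0 for Plau in every panel.

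The 3 P5 samples gave no further calls. P5 minus Resistant was 4.60 for Serpinb2 (SE 1.43, limma adjusted p = 0.105) and 1.99 for Serpine2 (SE 0.99, limma adjusted p = 0.348), with each of the 3 lines above its resistant sample for both genes. P5 minus Parental was 3.70 for Serpinb2 (limma adjusted p = 0.405) and -1.37 for Plaur (limma adjusted p = 0.548), each setting 3 P5 lines against 6 parental lines. Within lines the Plaur difference was -2.94 in #3, -0.31 in #9 and 0.37 in #7. It was -0.99 with the line as a block, -0.61 without #3 and -2.26 without #7. P12 minus P5, setting 6 P12 lines against 3 P5 lines, was within 0.49 of 0 on the log2 scale for each of the 5 genes. The 95% intervals reached at least 1.38 on either side. Single lines moved further and in both directions. In #3, #7 and #9 the difference was 1.61, -1.34 and 2.01 for Serpinb2. It was -0.89, 1.27 and -0.39 for Serpine2 and 1.03, -0.59 and 0.61 for Plau.

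Read by line rather than by gene, the resistant state fell into different patterns. Line #3 had Plat more than 1 log2 unit above Parental and Plau, Plaur and Serpine2 more than 1 below it. Line #4 showed the same, with Serpinb2 also below. In #6 only Serpine2 and Serpinb2 passed 1 log2 unit, both downward. Line #7 had Plau and Serpinb2 above, #9 had Serpinb2 below and #10 had none past 1 log2 unit. Over the 18 Parental, Resistant and P12 samples, the cell line took 75.4% of the variance of Plat and the state 3.11%. The line share was 45.2% for Plaur, 33.8% for Plau, 23.9% for Serpine2 and 17.3% for Serpinb2, and the state share was 25.8%, 9.05%, 27.0% and 47.9%. Across all genes tested the median was 35.8% for the line and 19.8% for the state. The line share of Plat was larger than that of 96.8% of genes, and the state share of Serpinb2 larger than that of 86.8%.

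**Figure D4:**
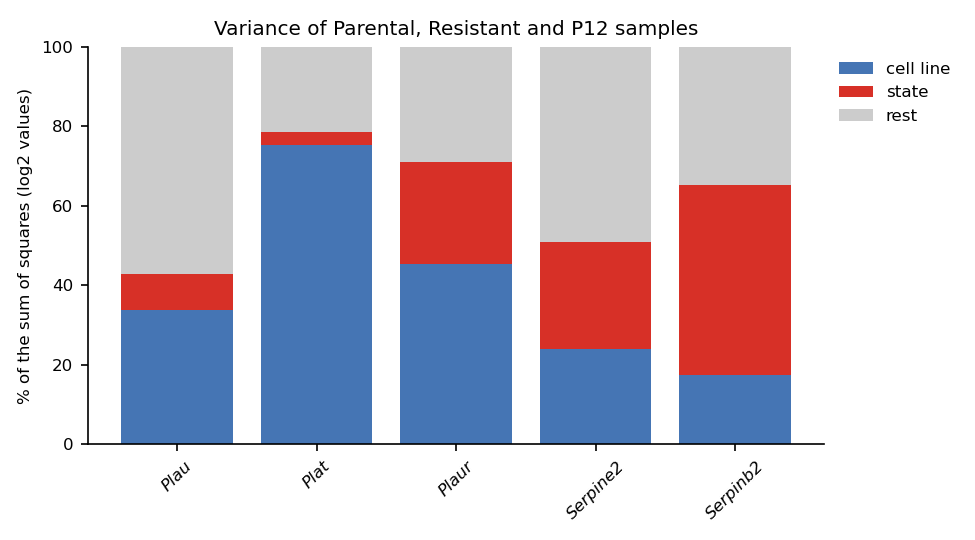
Share of the variance of log2 values (y axis, % of the sum of squares) taken by cell line, state and the rest, for each gene (x axis) over the Parental, Resistant and P12 samples. The line takes 75.4% for Plat, and the state takes 47.9% for Serpinb2.

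Across the 21 samples, which share 6 lines and so are not independent, Plau and Serpine2 had a Pearson r of 0.75 (Spearman 0.66), and 0.74 once each line's mean was removed. Serpine2 and Serpinb2 had an r of 0.58 (Spearman 0.59), and 0.61 with line means removed. Plau and Plat ran in opposite directions, at -0.50 (Spearman -0.42), and at -0.79 with line means removed. These correlations are descriptions over shared lines and carry no test. The genes whose levels were most like each of the 5 were taken from all 19300 by Pearson r. For Plau they were Has2, a hyaluronan synthase (r = 0.84), then Mtap, Cep170, Nup107 and Cdk17, and the most opposite was Slmapos2 (-0.83). Plat was most like 2010320M18Rik (r = 0.91), Plce1, Rcan2, Crip1 and Nsfl1c, and Plaur most like Lasp1 (r = 0.93), Tmed5, Mboat1, Rassf7 and Klf6, with the glycosyltransferase gene A4galt most opposite (-0.92). Serpine2 was most like Gzmd (r = 0.82), followed by Plau itself, Inhba, Mtap and Fmnl3. For Serpinb2 they were Atp8b4 (r = 0.85), Acap1, Cyth4, M1ap and Lilrb4a, each at 0 in some samples as Serpinb2 is, and the most opposite was the clearance receptor gene Lrp2 (-0.77).

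Around the 5 genes, 39 other genes of the system were examined: plasminogen, its receptors, further inhibitors, activating proteases, receptor partners and clearance receptors, and targets. Of these 33 passed the filter; plasminogen itself (Plg) was at or below 2.51 normalized counts in every sample. In Resistant versus Parental 0 were called higher and 1 lower, beside 5.3% of all genes tested, and in P12 versus Resistant 0 higher and 1 lower, beside 2.13%. None was called in P12 versus Parental or in the comparisons with P5. The median log2 difference of the 33 was 0.13, 0.15 and 0.09 in Resistant versus Parental, P12 versus Resistant and P12 versus Parental. With the line as a block, Resistant versus Parental had 2 called higher and 3 lower, beside 10.5% of all genes. The counts are small and none of the list's shares is read as a result about it.

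The gene called lower in resistant cells was St14, encoding matriptase, a membrane serine protease that can activate pro-urokinase. St14 ranged from 12.8 to 591.5 normalized counts (median 158.3) in Parental, from 7.24 to 31.1 (median 19.7) in Resistant and from 14.6 to 35.0 (median 20.1) in P12. Its parental value was above the resistant one in 5 of 6 lines, with #9 the exception at 12.8 and 31.1. Resistant minus Parental was -2.70 (SE 0.65, limma adjusted p = 0.00875; 0.00815 with the line as a block). The call was lost without any 1 of 5 lines, at limma adjusted p = 0.0499 without #3, 0.0435 without #4, 0.0527 without #6, 0.0350 without #7 and 0.0214 without #10. P12 minus Parental was -2.42 (limma adjusted p = 0.0915), and P12 minus Resistant was 0.28 (limma adjusted p = 0.869).

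Lrpap1, whose product is the chaperone that keeps LDL-receptor family members, clearance receptors of urokinase-inhibitor complexes, free of ligand during their synthesis, was the gene called in P12 versus Resistant. Its values were 771.6 to 1488 (median 1011) in Parental, 1149 to 4772 (median 2928) in Resistant and 649.2 to 1443 (median 868.2) in P12. Every line was lower in P12 than in Resistant, by -1.51 over the 6 lines (SE 0.33, limma adjusted p = 0.00931). Without #3, #4, #6, #9 or #10 the limma adjusted p was 0.0371, 0.0307, 0.0361, 0.0195 and 0.0540, so this call too needed all but line #7. Resistant minus Parental was 1.32 for Lrpap1 (limma adjusted p = 0.0117; 0.00264 with the block, called higher), with #7 the exception to the direction.

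A further 3 genes passed the threshold in Resistant versus Parental only with the block. Mrc2, encoding a collagen-uptake receptor that associates with uPAR, stood at 5.85, 83.1, 52.0, 3.82, 4721 and 2.04 normalized counts in Parental #3, #4, #6, #7, #9 and #10, and at 22440, 8545, 17178, 127.4, 2073 and 216.4 in Resistant. The difference was 6.07 (SE 2.09, limma adjusted p = 0.0552; 0.00318 with the block), higher in 5 of 6 lines and lower in #9. Serpinb6a, an intracellular serpin, was 6811 to 9296 in Parental and 1215 to 6539 in Resistant, ranges that did not overlap, at -1.50 (limma adjusted p = 0.0243; 0.00353 with the block). Krt8, an epithelial keratin that binds plasminogen at the cell surface, was lower in 6 of 6 lines at -1.81 (limma adjusted p = 0.503; 0.00818 with the block), from a median of 79650 to 14260, with #9 at 545.8 and 544.5. Krt8 was also in the epithelial marker list, and Mrc2 (median 28.9 in Parental and 5309 in Resistant) was higher in the same state as the fibroblast-type sum given above; the part of these cell-state markers in either result was not tested.

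**Figure D5:**
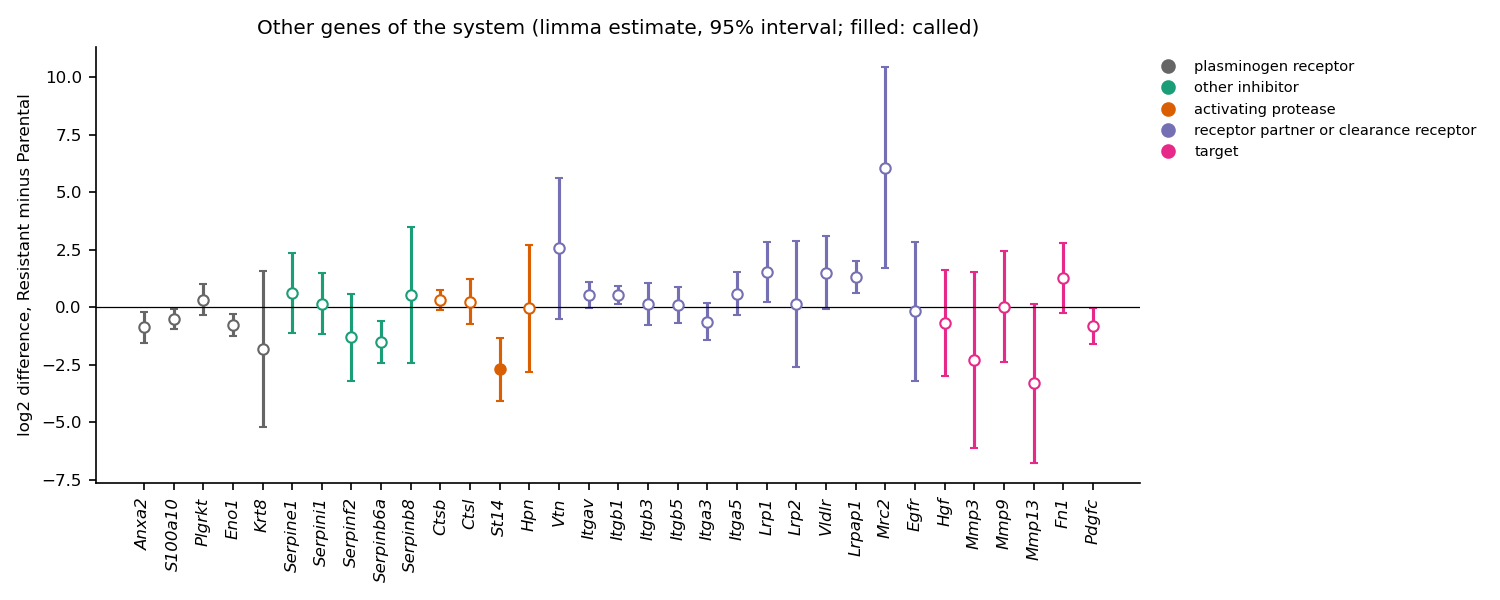
Log2 difference Resistant minus Parental (y axis) for the 33 other genes of the system that passed the filter, coloured by role, with 95% intervals from the limma fit without a block. The filled point, St14 at -2.70, is the only called gene; Mrc2 has the highest estimate, 6.07, and its interval of 1.69 to 10.4 lies above 0, but its adjusted p of 0.0552 was not below 0.01.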

How the data were processed

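RNA was extracted from cultured cells and sequenced from TruSeq stranded mRNA libraries on 2 types of Illumina instrument. Which sample ran on which was not stated in the sources used here, so no within-instrument comparison was made. The deposited values are a signal per gene: read counts that the authors estimated with Salmon 0.12 on mm10, summed to genes and divided by DESeq2 1.18 size factors. Because they are not counts, limma 3.58.1 with a trended prior (R 4.3.3) was run on log2(value + 1) over the 19300 genes that reached 10 in 3 or more samples, in 1 fit of all 4 states without covariates. Calls needed a Benjamini-Hochberg adjusted p below 0.01 and an absolute log2 difference above 1. Of low values, 58.2 to 73.9% lay within 0.05 reads of a whole step, too few to recover reads for a count test. Same-numbered samples are the same cell line; their residuals had r from -0.0601 to 0.806 (mean 0.4, 25 of 27 pairs over 0.1). The fit with the line as a block was therefore run beside the main one. Exact sign-flip tests used 6 paired lines. Levels were compared between genes per kilobase of merged GENCODE M21 exons. Scripts were tested on simulated data. In a simulated Resistant versus Parental comparison, the main fit called 25 of 50 genes changed by 2 log2 units. It called 39 of 50 changed by 4. The lack of a call therefore does not show that a gene was unchanged. The named genes are the 5 members, reported whatever their values, the genes of the 39-gene list called in a main comparison with or without the block, and the genes most like each member by Pearson r. The members and lists were chosen with earlier results of these data known. Alternatives covered pseudocount, filter, scaling, block, trend, threshold, samples in the fit and leaving out each line. A further allele, carried by all groups alike, is not reported here.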

Additional observations from a re-analysis of the deposited data

Results flagged for a closer look

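In 15 groups of 6 samples (5 genes in 3 states), the highest or lowest sample was compared with its nearest neighbour, and 3 groups had a sample far from the rest (a gap above 0.625 of the range). Chance alone flags about 1 in 20 groups when values are normally spread, which skewed counts are not. On the log2 scale the gap was 0.365 of the range for Serpine2 in P12 and 0.4 for Serpinb2 in P12, both under 0.625, and it stayed at 1.0 for Serpinb2 in Resistant, where 5 samples are tied at 0. Serpine2 in P12 stood at 1408 normalized counts in line #4, and the next line, #9, at 446.9. Serpinb2 in Resistant stood at 27.2 normalized counts in line #7, with the other 5 lines listed at 0. Serpinb2 in P12 stood at 361.3 in line #9, and the next line, #7, at 73.2.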

How the results depend on the processing

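Of the 474 alternative values of the 5 genes' log2 differences, 437 kept their direction and their side of the threshold, 36 reversed and 1 newly passed it. The 1 was Serpinb2 in P12 versus Resistant (4.12, adjusted p = 0.0400), which made 1 of the 5 genes called at an adjusted p below 0.05. No reversed difference was called. Over all genes, that threshold gave 2190 calls in Resistant versus Parental, 947 in P12 versus Resistant, 116 in P12 versus Parental, 376 in P5 versus Resistant and 9 in P5 versus Parental, and 3 other genes of the system in Resistant versus Parental. The cell line as a replicate block gave 2017, 872 and 101 calls in the first 3 and 118 in P5 versus Resistant, and 5 other genes of the system; pairing the lines changed no call of the 5 genes. With only the compared states in the fit, calls were 93 in P12 versus Resistant, 12 in P12 versus Parental, 14 in P5 versus Resistant, 1 in P5 versus Parental and 1 in P12 versus P5; with the replicate block as well, an alternative chosen after seeing the data, they were 3 in P12 versus Parental and 0 in both P5 comparisons with Resistant and Parental. No filter gave 273 calls in P12 versus Resistant. A mean of at least 100, which drops Serpinb2, gave 5 in P12 versus Parental and 3 in P5 versus Parental. Among the other genes of the system, the 1 call in Resistant versus Parental became 0 without a filter and with the compared states and the block, and the 1 call in P12 versus Resistant became 0 without a filter, with upper quartile rescaling, without a trend and with the compared states only. Upper quartile rescaling moved the median of all genes to 0.11 in P12 versus Resistant and 0.13 in P5 versus Resistant, and Plau in P12 versus Parental to 0.012.

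Under the replicate block, Plaur became 0.17 in P5 versus Resistant and -0.33 in P12 versus P5, and Plat 0.25 in P5 versus Parental and -0.17 in P12 versus P5. With the compared states and the block, Plaur was 0.48 in P5 versus Resistant, Plau 0.077 and Plat 0.037 in P5 versus Parental, and Plat -0.23 and Serpinb2 0.76 in P12 versus P5. The median over lines put Plaur at 0.15 in P12 versus Resistant. Leaving out each line in turn gave 450 to 1237 calls in Resistant versus Parental (fewest without #6), 132 to 467 in P12 versus Resistant (fewest without #4), 4 to 68 in P12 versus Parental (most without #9), 23 to 48 in P5 versus Resistant and 1 to 5 in P5 versus Parental, and 0 to 3 and 0 to 1 other genes of the system in the first 2. It left none of the 5 genes called. Ranges that crossed 0 were Plaur -0.37 to 0.064 in P12 versus Resistant; Plau -0.30 to 0.19, Plat -0.077 to 0.31 and Serpine2 -0.21 to 0.88 in P12 versus Parental; Plaur -0.93 to 0.15 in P5 versus Resistant; Plau -0.58 to 0.23, Plat -0.84 to 0.36 and Serpine2 -0.56 to 0.87 in P5 versus Parental; Plau -0.34 to 0.50, Plat -0.047 to 0.86, Plaur -0.38 to 0.67, Serpine2 -0.77 to 0.35 and Serpinb2 -1.88 to 0.33 in P12 versus P5; and Krt8 -0.26 to 0.44 in P12 versus Resistant. The cause of these changes was not tested. The state share of variance of Serpinb2 was 40.0% with a pseudocount of 8. Of the 5 genes most like a member, 0 to 3 remained with line means removed and 1 to 3 by Spearman rank. The share of a resistant change kept in P12 was not computed, because none of the 5 genes was called. Depth limits Serpinb2, whose counts in 8 of the 21 samples were 0, and 6 lines limit every comparison.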
